A study of Mus musculus with 2 samples.

Results

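The Mir26 family of the mouse was followed in microRNA libraries of the embryonic limb. It consists of 3 microRNA (miRNA) genes, Mir26a-1, Mir26a-2 and Mir26b, out of 1973 miRNA genes counted. They were taken by their Ensembl identifiers in the count tables, each matched to its symbol in the GENCODE annotation, and not by their levels. The tissue was whole limb of B6NCrl embryos of mixed sex, 13.5 days old and labelled healthy. There is 1 group with 2 replicates, which are separate tissue samples under the same donor label, and no treated, mutant or second tissue group. Values from both libraries are therefore set against each other and against other miRNA genes.

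A miRNA is cut from a hairpin in a longer transcript. One arm of the hairpin, usually the more abundant, is loaded into an Argonaute protein and guides it to messenger RNAs that pair with the seed, bases 2 to 8 of the mature sequence. The Mir26 hairpins lie inside genes of the Ctdsp family, small phosphatases that act on the C-terminal domain of RNA polymerase II. Ctdsp phosphatases are also known to restrain neuronal genes outside neurons and to act on the retinoblastoma protein, and miR-26 is known as a broadly expressed miRNA linked to growth control and differentiation.

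The mature sequences are shown because they determine which reads can be assigned to 1 gene. They are given 5′ to 3′ from RefSeq (GRCm38.p6), with the seed in capitals. The 5p arm is the one known as the guide.
miR-26a-5p of Mir26a-1 and of Mir26a-2: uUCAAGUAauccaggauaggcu
miR-26b-5p of Mir26b: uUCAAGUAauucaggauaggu
miR-26a-1-3p of Mir26a-1: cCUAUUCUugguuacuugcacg
miR-26a-2-3p of Mir26a-2: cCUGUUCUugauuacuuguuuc
miR-26b-3p of Mir26b: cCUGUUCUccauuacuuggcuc

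The 5p arms of Mir26a-1 and Mir26a-2 are the same over all 22 bases. Over the 21 bases of miR-26b-5p, miR-26a-5p and miR-26b-5p differ at 2 positions, C11U and C21U, counted from the 5′ end with the miR-26a base first. Both lie outside the seed, so the 3 genes share the seed UCAAGUA, which no other of the 991 genes with a mature sequence in the table carries. The 3p arms set the genes apart in another way. Mir26a-2 and Mir26b share the 3p seed CUGUUCU, also found in Mir6932 and Mir7039, while the 3p seed of Mir26a-1, CUAUUCU, occurs in that gene alone. Between the 3p arms of Mir26a-1 and Mir26a-2 6 of 22 bases differ, and between those of Mir26a-2 and Mir26b 4 of 22.

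The hairpins show how far the likeness of the copies reaches. In the first and second hairpin the capitals mark the longest stretch that both share, and in the third the miR-26b-5p arm.
Mir26a-1 hairpin: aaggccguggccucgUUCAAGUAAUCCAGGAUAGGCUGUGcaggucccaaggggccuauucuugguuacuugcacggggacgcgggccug
Mir26a-2 hairpin: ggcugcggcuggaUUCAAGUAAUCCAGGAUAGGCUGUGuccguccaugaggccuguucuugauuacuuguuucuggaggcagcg
Mir26b hairpin: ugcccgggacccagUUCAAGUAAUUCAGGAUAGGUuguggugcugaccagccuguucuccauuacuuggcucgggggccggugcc

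The shared stretch of Mir26a-1 and Mir26a-2 is 25 bases long. It begins at the first base of miR-26a-5p and runs 3 bases past its last. A read that lies inside it has more than 1 place of origin, whereas a read that begins earlier, runs further, or comes from the 3p arm does not. The longest stretch that Mir26b shares is 11 bases with Mir26a-1 and 10 bases with Mir26a-2. Among 2202 miRNA genes of the annotation, miR-26a-5p was found in Mir26a-1 and Mir26a-2 only, and miR-26b-5p in Mir26b only. All 3 hairpins fold with most of the 5p arm paired, 20 of 22 bases in Mir26a-1, 19 of 22 in Mir26a-2 and 18 of 21 in Mir26b, with predicted free energies of -49.4, -44.5 and -43.5 kcal/mol.

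Each hairpin lies on the strand of its host. Mir26a-1 (ENSMUSG00000065513) lies on chromosome 9 at 119031796 to 119031885 (mm10, plus strand), in intron 5 of the principal transcript of Ctdspl. That intron is 3283 bases long. Mir26a-2 (ENSMUSG00000065430) lies on chromosome 10 at 126995530 to 126995613, plus strand, in intron 5 of the principal transcript of Ctdsp2, an intron of 1946 bases. It overlaps an annotated exon in 2 of the 4 Ctdsp2 transcripts. Mir26b (ENSMUSG00000065468) lies on chromosome 1 at 74394310 to 74394394, plus strand, in intron 4 of the principal transcript of Ctdsp1. This intron is the shortest of these introns, at 564 bases, with 234 bases before the hairpin and 245 after it. The hosts differ in length as well: Ctdspl spans 117546 bases, Ctdsp2 21259 and Ctdsp1 5777.

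**Figure D1:**
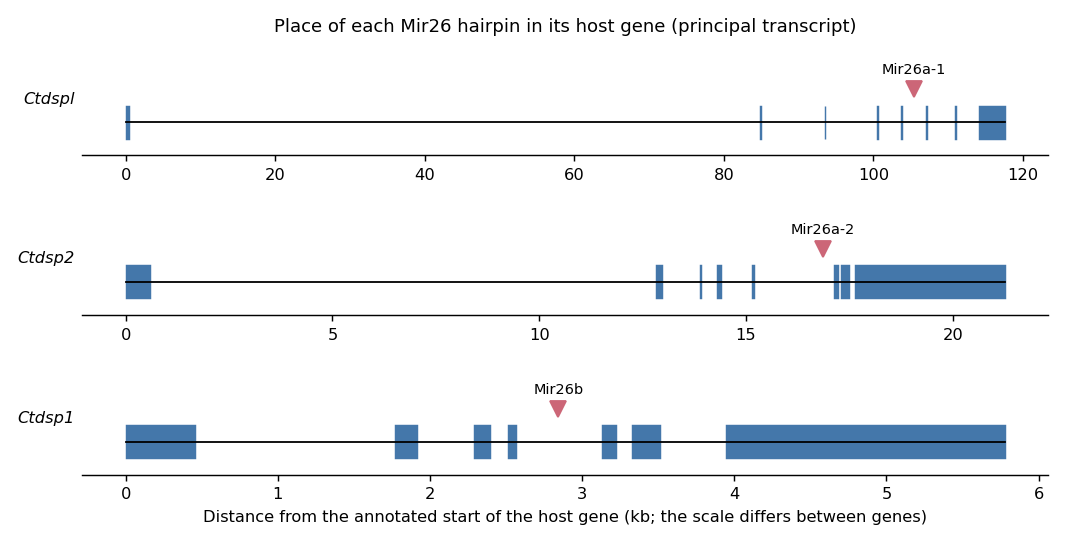
Place of the Mir26 hairpins (triangles) in the principal transcripts of Ctdspl, Ctdsp2 and Ctdsp1, with exons as boxes and distance from the annotated gene start in kb on the horizontal axis. The scale differs between the genes, which span 117546, 21259 and 5777 bases, and each hairpin lies in an intron of the transcript drawn.

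Replicate 1 held 12407140 reads with 5927321 sense counts in miRNA genes, and replicate 2 held 12657170 with 6003632. Levels are given as CPM, the sense counts of a gene scaled to a library total of 1000000 such counts. Reads listed as multimapping, 30.8% and 29.5% of all reads, enter no gene, and the counts do not separate the arms of a hairpin. Markers of limb tissues were present: cartilage (Mir140 and Mir455) summed to 48689 and 48605 CPM in replicates 1 and 2, and limb Hox miRNAs to 93526 and 85152 CPM. In whole tissue, fewer cells of a type and less RNA per cell cannot be told apart.

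Mir26b carried nearly all counts of the family. It had 143180 sense counts in replicate 1, or 24156 CPM (95% exact binomial interval 24033 to 24280), and 153495 in replicate 2, or 25567 CPM (25441 to 25694). The mean was 24862 ± 998 CPM (SD, n = 2), which placed Mir26b at rank 13 of 1973 by mean, 13 in replicate 1 and 12 in replicate 2. These intervals, like all below, cover counting error only. The intervals of the libraries do not overlap, although the libraries lie close together.

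Mir26a-2 had 223 counts in replicate 1 and 212 in replicate 2, or 37.6 CPM (32.8 to 42.9) and 35.3 CPM (30.7 to 40.4). Its mean was 36.5 ± 1.6 CPM (SD, n = 2), at rank 237. Mir26a-1 had 63 and 62 counts, or 10.6 CPM (8.17 to 13.6) and 10.3 CPM (7.92 to 13.2), with a mean of 10.5 ± 0.21 CPM (SD, n = 2) at rank 282. For both copies the libraries were alike within counting error, and both were above 10 counts in each library, the minimum used here for detection. No antisense read was listed over any of the 3 genes, where the limit set by a count of 0 (3 counts) is 0.506 CPM for replicate 1 and 0.4997 CPM for replicate 2.

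The order Mir26b, Mir26a-2, Mir26a-1 was the same in both libraries and no intervals overlapped between genes. Mir26b was counted 2273-fold above Mir26a-1 in replicate 1 and 2476-fold in replicate 2. The mean log2 ratio was 11.20 ± 0.09 (SD, n = 2), after adding 0.5 counts. Over Mir26a-2 it was counted 642-fold and 724-fold higher, a mean log2 ratio of 9.41 ± 0.12 (SD, n = 2). Mir26a-2 was counted 3.54-fold and 3.42-fold above Mir26a-1. The log2 ratio of Mir26a-1 over Mir26a-2 was -1.82 (interval -2.25 to -1.41) in replicate 1 and -1.77 (-2.21 to -1.36) in replicate 2. With 2 libraries a two-sided exact test over samples cannot give a p below 0.5, so these ratios carry no test.

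The family as counted held 2.42% of the sense counts in replicate 1 and 2.56% in replicate 2, a mean of 2.49% ± 0.0996 (SD, n = 2). Mir26b made up 99.8% of that in each library. Mir26a-2 made up 0.155% (interval 0.136% to 0.177%) and 0.138% (0.120% to 0.158%), and Mir26a-1 0.0439% and 0.0403%. These shares describe reads with 1 place in the genome. The multimapping reads, which no gene received, were 26.7 times the Mir26b count in replicate 1 and 24.3 times in replicate 2, and the tables do not say how many of them are miR-26a. The level of mature miR-26a, and its order against miR-26b, therefore cannot be read from these counts. Reads of the 3p arms and reads of the 5p arm that run past the shared stretch cannot be told apart in the counts that Mir26a-1 and Mir26a-2 did receive.

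Host families with the same layout were set beside the Ctdsp genes. The list holds 14 intronic miRNA genes of 6 families of paralogous hosts, and all 14 were detected. Their median was 91.0 CPM, with a range of 2.69 to 1525 CPM, against a median of 0 over all 1973 genes. None of them reached the level of Mir26b. Closest in layout are the miRNA genes in the pantothenate kinase genes Pank3, Pank2 and Pank1, where 2 genes again make 1 mature sequence and the third a near copy. Their 3p arms are shown for comparison, with seeds in capitals.
miR-103-3p of Mir103-1 and of Mir103-2: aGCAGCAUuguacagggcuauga
miR-107-3p of Mir107: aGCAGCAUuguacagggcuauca

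Mir107, with a mature sequence of its own, had 1524 CPM in replicate 1 and 1525 CPM in replicate 2. Mir103-2 had 55.3 and 53.8 CPM, and Mir103-1 had 3.71 and 1.67 CPM, from 22 and 10 counts. As counted, the gene with its own sequence lay above both copies, as it did in the Mir26 family. Reads of miR-103-3p with more than 1 place enter neither Mir103 gene, so the order of mature levels cannot be read from these counts. Mir107 was counted 27.5-fold and 28.3-fold above Mir103-2 in replicates 1 and 2, and 411-fold and 915-fold above Mir103-1. The gap to Mir103-1 lay below that of Mir26b over Mir26a-2 in replicate 1 (642-fold) and above it in replicate 2 (724-fold). The intervals of these ratios overlapped in both libraries, so their order was not resolved. In both libraries the gap to Mir103-1 was narrower than that of Mir26b over Mir26a-1 (2273-fold and 2476-fold). The difference between the families was not tested.

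In the other families the genes either shared a mature arm or had no copied arm. Mir128-1 (R3hdm1) and Mir128-2 (Arpp21) share a mature arm and lay at 167 ± 4.7 and 114 ± 4.9 CPM (SD, n = 2). Mir218-1 and Mir218-2, in the axon guidance genes Slit2 and Slit3, also share an arm and lay at 12.2 ± 5.4 and 48.5 ± 2.8 CPM. Mir148b (Copz1) and Mir152 (Copz2) share none and lay at 164 ± 2.3 and 138 ± 17 CPM. Mir204 (Trpm3) and Mir211 (Trpm1) lay at 339 ± 9.6 and 11.0 ± 3.1 CPM, again without a copied arm. Of the miRNA genes in myosin heavy chain genes, Mir208b, Mir499 and Mir208a lay at 101 ± 0.15, 81.1 ± 10.6 and 6.78 ± 2.66 CPM. Gaps of differing size were seen with copied arms, as in the Ctdsp and Pank families, and without them, as for Mir204 and Mir211. The part of copied arms in any of these gaps was not tested.

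**Figure D2:**
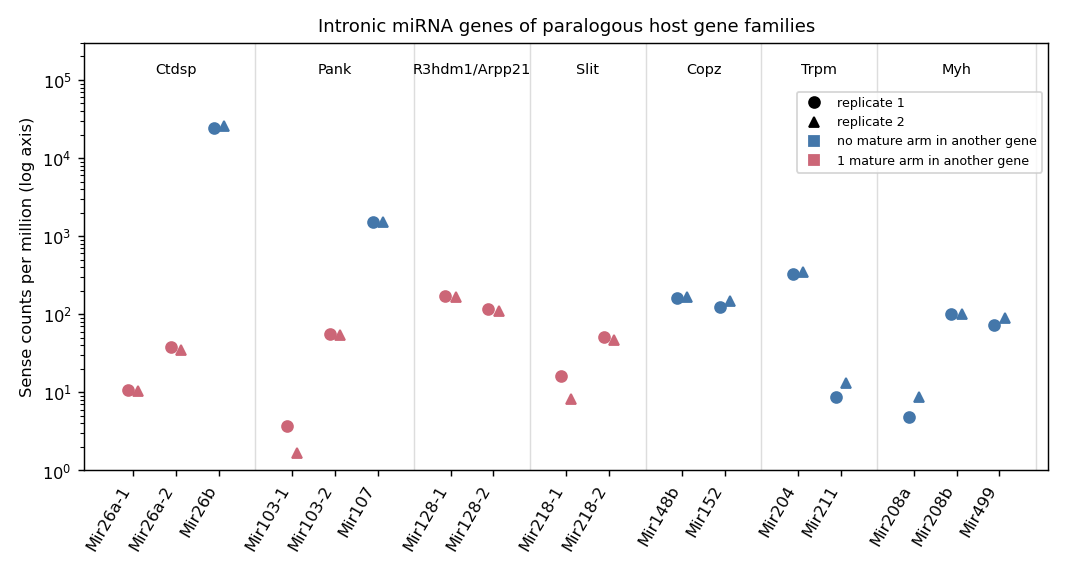
Level of each intronic miRNA gene of 7 host families in CPM on a log axis, with circles for replicate 1 and triangles for replicate 2. Red points are genes with a mature arm that is also found in another gene, and blue points genes without; Mir26b, at 24156 and 25567 CPM, is the highest gene drawn.

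Across all miRNA genes the copies of Mir26a were ordinary for their kind. Of the 1973 genes, 858 had mature sequences in the RefSeq table. In 54 of them some but not all mature arms also occur in another gene, as in Mir26a-1 and Mir26a-2. Of these 54 genes 38 were detected, with a median over all 54 of 15.6 CPM, and Mir26a-2 and Mir26a-1 ranked 22 and 31 among them. The highest was Mir92-1 at 2784 CPM. In 761 genes no arm occurs elsewhere, 272 were detected, and Mir26b ranked 12 among them. In a further 43 genes every listed arm is copied, and 9 were detected. No gene known from this search to have a copied arm reached the level of Mir26b. Reads of such an arm with more than 1 place enter no gene.

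**Figure D3:**
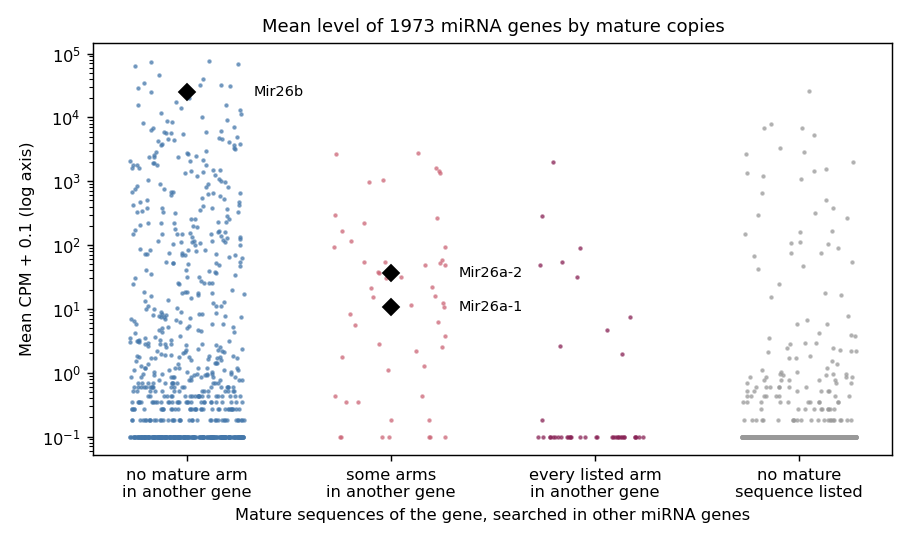
Mean CPM plus 0.1 on a log axis for 1973 miRNA genes, each a point, by whether their mature sequences occur in another miRNA gene. Diamonds mark Mir26b among the 761 genes without a copied arm and Mir26a-1 and Mir26a-2 among the 54 with some arms copied.

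The contrast within the Mir26 family was also placed among other seed groups. A seed group here is a set of counted genes with a mature sequence in the RefSeq table and the same seed on the same arm. In all, 14 groups with at least 10 counts in each library hold single-copy genes as well as genes with a copied arm. Counted genes without such a sequence are in no group, so that a group can be incomplete. Among them were Mir181c at 6926 CPM, Mir15a at 2654 CPM and Mir125b-2 at 515 CPM. Reads of a copied arm with more than 1 place enter no gene, so the ratios below compare counts and not mature levels. In 11 of the 14 the single-copy genes had the higher summed counts, and the median log2 ratio was 5.19. For Mir26b over the summed Mir26a-1 and Mir26a-2 counts it was 8.97 in replicate 1 and 9.13 in replicate 2, a mean of 9.05 and the second highest mean of the 14. The highest, 11.26, belongs to the group of Mir344e and Mir410, whose copied Mir344d genes were at 0 counts, so that its value is set by the added 0.5 counts. The Mir29 mean, 8.78, rests on 0.253 CPM in the copied genes and comes from 7.18 in replicate 1 and 10.37 in replicate 2, so that in replicate 2 the Mir29 group lay above the Mir26 group.

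Groups next in line held well known families. Mir30a, Mir30e and Mir384 stood over Mir30c-1 and Mir30c-2 at a log2 ratio of 8.16, and Mir196b over Mir196a-1 and Mir196a-2 at 6.26. The direction was the other way in 3 groups: Mir181d against 4 copied Mir181 genes at -0.19, the Mir25 group against Mir92-1 and Mir92-2 at -1.46, and Mir7b against Mir7-1 and Mir7-2 at -3.36. The Mir181 direction is not settled, since Mir181c, without a matched mature sequence, was left out. At 6926 CPM it lay above the 4298 CPM of the 4 copied genes together. As counted, the genes with a copied arm were the higher ones in the Mir25 and Mir7b groups, where Mir7b itself had 5.19 CPM. These groups are a description, since the genes share libraries and some groups share genes.

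**Figure D4:**
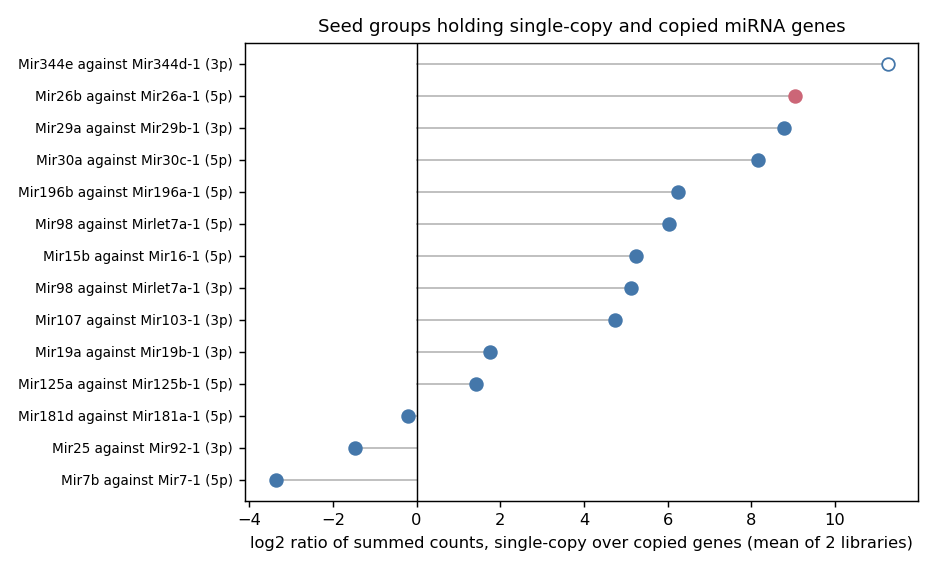
Mean log2 ratio of summed counts of single-copy over copied genes for 14 seed groups, each named by its first single-copy and first copied gene and by the arm with the seed. Genes without a listed mature sequence are in no group. The Mir26 group (red) lies at 9.05, 3 groups lie below 0, and the open point has copied genes at 0 counts.

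The genes most like each member in level were taken by distance in log2(CPM + 1) over the 2 libraries. For Mir26b these were Mir99b, at 26843 and 24498 CPM in replicates 1 and 2, Mir214, at 27909 and 29093 CPM, and Mir126a, at 20830 and 19637 CPM. Mir99b lay above Mir26b in replicate 1 and below it in replicate 2, so their order was not resolved. Mir214, found in limb mesenchyme, was above Mir26b in both libraries, and the endothelial Mir126a below it in both. For Mir26a-2 the nearest genes were Mir877, Mir194-2 and Mir153, with means of 37.1, 37.8 and 34.6 CPM, and for Mir26a-1 they were Gm23450, Mir1930 and Mir30c-2, at 9.98, 9.97 and 11.4 CPM. Both sets include a gene with a copied arm, Mir194-2 and Mir30c-2. With 2 libraries of 1 tissue, such nearness says only that levels were alike.

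Last, replicate 2 was set against replicate 1 by an exact, two-sided binomial test. It took in the 410 genes that reached 10 counts in either library, with Benjamini-Hochberg adjustment over all of them. A call needed an adjusted p under 0.05 and a log2 ratio of 1 or more in size. None of the 3 members was called, against 14 of 410 genes (3.41%) overall. Mir26b was higher in replicate 2 by a log2 ratio of 0.08 (adjusted p = 9.02e-53, exact binomial test), far under the minimum ratio. This p covers counting error between 1 library and the other, treats reads as independent, and is no evidence of a difference beyond the spread of replicates. By adjusted p alone Mir26b passed, as did 43.7% of the genes tested, 19.8% being higher and 23.9% lower in replicate 2. Mir26a-1 and Mir26a-2 had log2 ratios of -0.04 and -0.09 (adjusted p = 0.964 and 0.687, exact binomial test). Among the 190 genes of at least 100 CPM the median absolute log2 ratio was 0.13, and 125 of them differed more than Mir26b.

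The direction of Mir26b was shared by markers of several tissues. Of the 18 tissue markers tested, 9 were higher and 3 lower in replicate 2 by adjusted p alone (exact binomial test). The shares over all genes tested were 19.8% higher and 23.9% lower. Among the higher markers, the heart marker Mir208a had a log2 ratio of 0.81, from 29 and 52 counts. The liver marker Mir122 lay at 0.27. The epithelial markers Mir203, Mir205 and Mir200b, 3 of 3 detected, had a summed level of 15105 CPM (replicate 1) and 17444 CPM (replicate 2), with log2 ratios of 0.14, 0.27 and 0.31. Mir206 of skeletal muscle and Mir214 of mesenchyme had log2 ratios of 0.07 and 0.06. The other muscle marker, Mir133b, lay at 0.0008, and the other mesenchyme marker, Mir199b, at -0.59. Of the limb Hox markers, Mir10b lay at 0.03 and Mir196b at -0.17. The 3 lower markers were Mir199b, Mir196b and the endothelial Mir126a, at -0.09, so the lists for mesenchyme and limb Hox were split. The part of these tissues in the Mir26b difference was not tested. The blood markers Mir451a, Mir144 and Mir223 summed to 443 and 445 CPM, and of the 2 neuronal markers counted Mir124a-1 was at 0 in both libraries while Mir137 had 114 and 143 CPM, a log2 ratio of 0.33. This test compares the 2 libraries and not conditions.

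**Figure D5:**
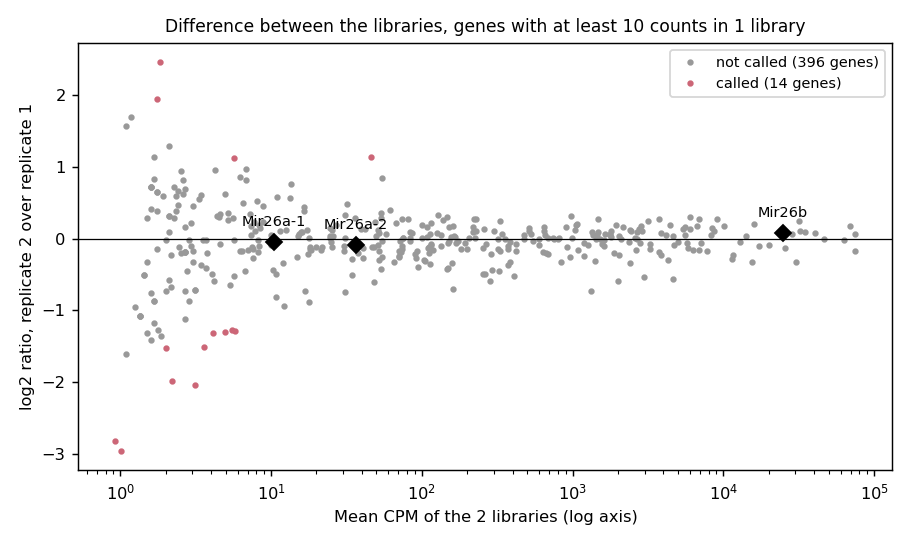
Log2 ratio of replicate 2 over replicate 1 against mean CPM on a log axis for 410 miRNA genes, with the 14 called genes in red and the Mir26 genes as diamonds. The diamonds lie at -0.04, -0.09 and 0.08, near 0 at all levels of expression.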

How the data were processed

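Small RNA from limb at embryonic day 13.5 was sequenced in 2 replicate libraries. The authors deposited whole-number read counts per miRNA gene (either strand, sense, antisense) after 4 lines for reads in no gene, with mm10 and GENCODE M4 named in the accompanying text. Column meanings come from the layout: the first count column equals the sum of the others in all 1973 genes. The sources used here do not give the aligner or counter. Reads outside genes (unmapped 17.2% and 18.6%, multimapping 30.8% and 29.5%, no gene on the sense strand 4.24% and 4.48%) stayed out of CPM and tests.

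Identifiers matched GENCODE M21 (same build) for 1894 genes. RefSeq (GRCm38.p6) mature sequences, matched by symbol for 858 genes, were searched on the sense strand of 2202 annotated miRNA hairpins; the rest of the genome was not searched. Hairpins were folded with RNAfold 2.7.2. The exact binomial test (scipy 1.17.1) was tested on simulated Poisson counts with counting noise only, a setting that does not cover spread between replicates. Replicates rest on the labels, and the libraries differ beyond counting noise (chi-square 39729, 713 degrees of freedom). Scaling alternatives used edgeR 4.0.16 and DESeq2 1.42.0, for factors only.

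Members and lists were chosen with earlier results of these data known. Named genes were the members, the 3 nearest to each in level, all detected genes of the paralogous host list and the 4 highest of the G1/S list. Other genes named, from seed groups and copy classes, were chosen after their values were seen, apart from a fixed list of tissue markers.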

Additional observations from a re-analysis of the deposited data

How the results depend on the processing

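Counted against all reads, unmapped and multimapping ones included, the family share was 1.19%, and against genes without copied mature arms 2.74%, where 2.49% is reported. On either strand it was 2.41%. Leaving out 1 replicate gave 2.42% to 2.56% for the share, 11.14 to 11.26 for the log2 ratio of Mir26b over Mir26a-1, and -1.82 to -1.77 for Mir26a-1 over Mir26a-2. Neither ratio moved beyond the spread of the libraries with another pseudocount, with none, or on either strand. The number of genes called between the libraries was 179 by adjusted p alone and 13 to 15 under the other alternatives, against 14. Only by adjusted p alone was Mir26b called. TMM and DESeq2 scaling left every member's direction as it was, with log2 ratios of 0.10 for Mir26b under each. No alternative here can place the multimapping reads. No paired analysis was possible because there is 1 group.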

Other observations

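Growth control is also the field of the miRNAs known to restrain the step from G1 to S phase, such as the Mir15 and Mir16 family and the p53-responsive Mir34 family. Of 14 listed symbols 11 were counted and 9 detected, with a median of 264 CPM over those counted, against 0 over all 1973 genes. Mir15a led at 2654 ± 213 CPM (SD, n = 2), followed by Mir16-1 at 1608 ± 80.9, Mir15b at 818 ± 2.3 and Mir34c at 637 ± 58.4 CPM. The listed genes together held 0.675% of sense counts, below the 2.42% and 2.56% of the Mir26 family. That order holds for the list only, which leaves out Mir322, a gene with the 5p seed of Mir15b, Mir195a and Mir16-1. Mir15b, Mir195a and Mir322 together had 70934 CPM, of which Mir195a had 548, and so lay above Mir26b, at 24862 CPM. Mir16-1 and Mir16-2 have a copied arm, so reads of that arm with more than 1 place enter neither gene. Between the libraries none of the 9 tested genes was called, against 3.41% of all genes tested; by adjusted p alone 2 were higher and 4 lower in replicate 2 (exact binomial test), against 19.8% and 23.9% of all genes tested.

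The 3′ UTRs of the host genes were searched for UACUUGA, the letters that pair with the seed of miR-26, on the transcript strand of the principal transcript. They occurred 1 time in Ctdsp2 and not in Ctdspl or Ctdsp1. In Ctdsp2 they stand in capitals within their surroundings: cccaaguguugcucuUACUUGAu. Of 1928 coding genes with a longest 3′ UTR within 20% of the length of that of Ctdsp2, 23.0% hold these letters. The share was 22.1% at the length of Ctdspl and 10.9% at that of Ctdsp1. A match is a description of sequence, and the host messenger RNAs were not measured in these libraries.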
